A study of Homo sapiens with 18 samples.

Results

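The regions described here are the FOXA1 sites private to SKBR3, an established ERBB2-amplified luminal breast cancer line. A site is a merged region on hg38 that holds a FOXA1 peak of both SKBR3 replicates. It was called private when it overlapped, by at least 1 bp, no FOXA1 peak of either replicate of T47D, an estrogen receptor positive line, or of MDA-MB-453, an estrogen receptor negative line with androgen receptor. The sites were thus chosen by the presence and absence of the same FOXA1 peaks that give their scores, so score ranks below are a description. By this rule 16132 of 90520 SKBR3 FOXA1 sites were private, which is 17.8% of them, and the other 74388 are called shared. Across the 3 lines, 196570 merged regions met the definition of a site in at least 1 line.

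The study mapped FOXA1 and TLE3 by chromatin immunoprecipitation followed by sequencing (ChIP-seq) in the 3 lines, to ask how far both factors bind together. Each factor has 2 biological replicates per line, which gives 12 peak lists. The labels name no treatment or genetic change, and each line derives from 1 tumour. Peak lists hold no expression values, so the identity of the lines could not be set against marker genes. Cells for TLE3 were fixed with a further crosslinker before formaldehyde. The SKBR3 FOXA1 lists held 107598 and 116768 peaks and the other 4 FOXA1 lists 147283 to 188029. The lists hold no read counts, so sequencing depth is unknown, and a missing peak can mean no binding or too little signal. The library labelled SKBR3 TLE3 replicate 2 stood apart. It had 94363 peaks against 21149 in replicate 1, of which 7.54% were overlapped by replicate 1, and 21.7% lay at SKBR3 FOXA1 sites, against 93.5% of the peaks of replicate 1. Shares with TLE3 in SKBR3 are therefore given for each replicate where private sites as a whole, rank groups, best ranked sites and clusters are compared, and single sites and genes are described by TLE3 replicate 1.

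FOXA1 is a forkhead transcription factor that can bind its sites in closed chromatin and open them for other factors, and is therefore called a pioneer factor. In luminal breast cells it works with GATA3 and the hormone receptors at enhancers, most of which lie far from gene starts. TLE3 belongs to the Groucho family of corepressors, which do not bind DNA themselves and are brought to it by partner factors, forkhead proteins among them.

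Few private sites lay at promoters. The 250 bases upstream of an annotated start were overlapped by 167 of 16132 private sites (1.04%, exact 95% interval 0.885 to 1.20) and by 3189 of 74388 shared sites (4.29%, 4.14 to 4.44). Intervals cover counting error over sites only, and sites of 1 line are not replicates. A script searched these upstream windows on both strands for a forkhead core in 4 spellings, namely TGTTTAC or its variant TGTTTGC and, with A as the second base, either TATTTAC or else TATTTGC, none of which contains another. A match was present in 41 of 174 windows that hold a private site (23.6%, 17.5 to 30.6), in 836 of 4117 windows that hold a shared site (20.3%, 19.1 to 21.6) and in 3676 of all 34789 windows (10.6%). Among windows of protein-coding genes alone, those with a private site did not have the higher share, at 15 of 87 (17.2%, 9.98 to 26.8) against 545 of 3040 with a shared site (17.9%, 16.6 to 19.3) and 8.83% of all. Over all genes, the median GC content was 49.4% in windows with a private site, 59.2% in those with a shared site and 58.0% in all windows, and its part in these shares was not tested. The windows shown are of both kinds, with and without a core. TBX18 and TRIM62, whose private sites had the highest score ranks of this group, hold no match in the window. TCF4, DIO1, TREX2 and MYLK3 are the best ranked ones with a match. The choice was made after the values were seen. The private sites reach beyond these windows, and that part of their sequence was not searched. TBX18 and TCF4 are transcription factors of the T-box and basic helix-loop-helix families, TRIM62 is a ubiquitin ligase, DIO1 activates thyroid hormone, TREX2 is a DNA exonuclease and MYLK3 is a cardiac myosin kinase. The sequences are from RefSeq on GRCh38.p14, written 5′ to 3′ along the gene's strand, with the forkhead core in capitals.
TBX18 promoter, chr6:84764599-84764848, minus strand: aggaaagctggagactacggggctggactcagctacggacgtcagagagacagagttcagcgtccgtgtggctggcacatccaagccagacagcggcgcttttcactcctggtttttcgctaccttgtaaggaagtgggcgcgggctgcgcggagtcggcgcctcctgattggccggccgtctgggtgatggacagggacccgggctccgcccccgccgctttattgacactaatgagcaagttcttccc
TRIM62 promoter, chr1:33176551-33176800, minus strand: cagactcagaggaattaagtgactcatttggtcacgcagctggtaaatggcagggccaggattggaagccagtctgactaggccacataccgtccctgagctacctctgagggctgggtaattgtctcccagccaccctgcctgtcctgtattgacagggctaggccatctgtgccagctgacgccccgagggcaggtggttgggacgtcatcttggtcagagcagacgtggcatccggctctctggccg
TCF4 promoter, chr18:55589812-55590061, minus strand: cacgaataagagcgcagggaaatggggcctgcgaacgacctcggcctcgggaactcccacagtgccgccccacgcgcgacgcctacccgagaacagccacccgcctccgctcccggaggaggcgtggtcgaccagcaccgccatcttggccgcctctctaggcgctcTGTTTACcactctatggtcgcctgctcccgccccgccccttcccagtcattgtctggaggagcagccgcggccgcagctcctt
DIO1 promoter, chr1:53893937-53894186, plus strand: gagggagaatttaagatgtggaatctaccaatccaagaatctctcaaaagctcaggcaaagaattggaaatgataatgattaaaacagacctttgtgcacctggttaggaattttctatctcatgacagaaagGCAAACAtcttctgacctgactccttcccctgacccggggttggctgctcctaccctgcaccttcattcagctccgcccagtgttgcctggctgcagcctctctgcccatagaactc
TREX2 promoter, chrX:153446057-153446306, minus strand: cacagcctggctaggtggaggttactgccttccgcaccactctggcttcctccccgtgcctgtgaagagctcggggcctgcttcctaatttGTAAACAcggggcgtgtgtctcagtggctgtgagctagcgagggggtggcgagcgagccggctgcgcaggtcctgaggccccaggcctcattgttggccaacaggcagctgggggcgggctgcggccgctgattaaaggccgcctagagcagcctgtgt
MYLK3 promoter, chr16:46748345-46748594, minus strand: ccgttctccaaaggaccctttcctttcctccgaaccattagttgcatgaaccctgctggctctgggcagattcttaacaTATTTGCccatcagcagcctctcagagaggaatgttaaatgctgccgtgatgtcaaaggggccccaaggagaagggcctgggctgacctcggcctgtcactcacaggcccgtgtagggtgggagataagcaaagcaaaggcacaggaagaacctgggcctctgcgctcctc

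The private site over the TBX18 window (chr6:84764279-84765102) had FOXA1 peak scores of 203.8 and 210.3 in SKBR3 replicates 1 and 2, at percentiles 94.6 and 94.2 of their lists. The authors gave each peak its score, and the percentile used throughout is the percent of peaks of the same list with a lower score. The site over the TRIM62 window (chr1:33176323-33177074) scored 117.4 and 98.6 and carried a peak of SKBR3 TLE3 replicate 1 with a score of 4.45. The private sites over the 4 windows with a match lay lower in the lists. TCF4 had scores of 85.5 and 62.6, DIO1 of 41.2 and 41.1, TREX2 of 46.9 and 29.1, and MYLK3 of 11.6 and 37.3, and none of these 4 carried a TLE3 replicate 1 peak. A match or its absence in a window says nothing about binding there.

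Private sites stood in the lower part of the SKBR3 lists. Their median score percentile was 40.7 in replicate 1 and 46.2 in replicate 2, against 61.6 and 64.6 for shared sites. The median width was 463 bp for private and 548 bp for shared sites. The ranks moved with the number of other-line FOXA1 libraries that had a peak. The medians in replicates 1 and 2 were 40.7 and 46.2 for none of the 4 libraries, 44.1 and 48.1 for 1, 51.2 and 55.3 for 2, 51.6 and 55.7 for 3 and 70.3 and 72.6 for all 4. Private sites therefore sat close to the 5907 sites seen in 1 other library, with 10th to 90th percentiles of rank that overlap widely.

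**Figure D1:**
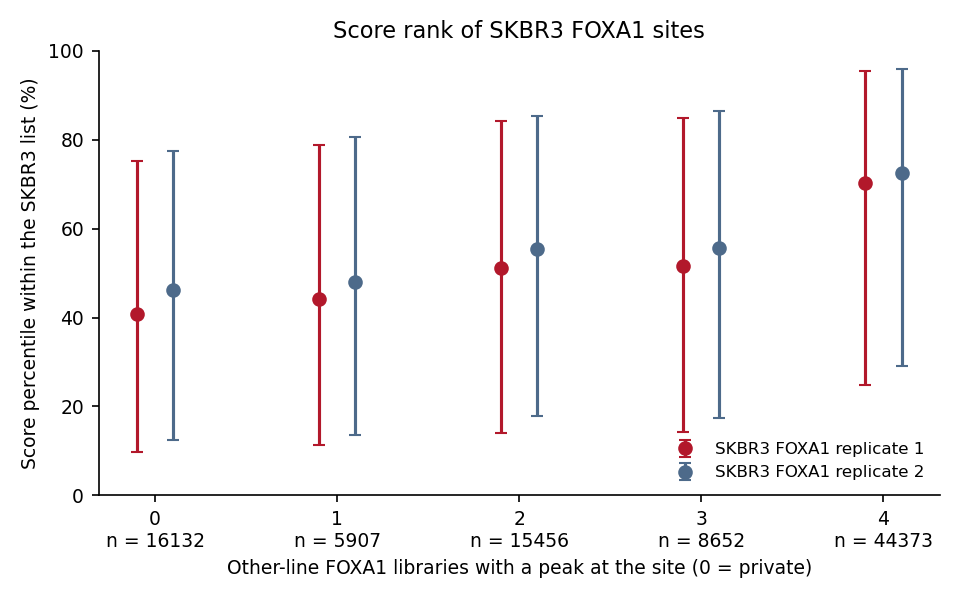
Score percentile of SKBR3 FOXA1 sites within the 2 SKBR3 FOXA1 lists (y axis, %) by the number of FOXA1 libraries of the other lines with a peak at the site (x axis, n is the number of sites). Points are medians and bars run from the 10th to the 90th percentile over sites, with the 16132 private sites at 0 having the lowest medians (40.7 and 46.2) and the 44373 sites at 4 the highest (70.3 and 72.6).

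At the upper end private sites were scarce. None of the 100 best ranked SKBR3 sites was private, 4 of the best 1000 were and 207 of the best 10000. The best ranked private site, at place 209 of 90520, lay 171237 bp from KLHL29, a kelch-like gene (chr2:23212992-23213941), with FOXA1 scores of 467.5 and 470.6 and a TLE3 replicate 1 score of 73.9. Its nearest FOXA1 peak of another line was 33065 bp away. The next lay in URB1, a ribosome biogenesis gene (chr21:32371830-32372764, scores 388.3 and 406.4), and in MICAL2, an actin-oxidising enzyme (chr11:12213867-12215780, scores 372.7 and 407.2). The fourth was 22830 bp from FBP1, the gluconeogenic fructose-1,6-bisphosphatase (chr9:94663094-94664420, scores 400.9 and 375.1). The site in LHPP, a phosphatase gene (chr10:124522570-124523754, scores 402.6 and 366.3), was the single one of the 10 best ranked without a TLE3 replicate 1 peak. The others of the 10 lay nearest to SLC10A2, the ileal bile acid transporter, L3MBTL4, the collagen gene COL11A1, the glutamate receptor gene GRM8 and the pregnancy-specific glycoprotein gene PSG5. In both SKBR3 libraries, the 10 sites had percentiles of 97.8 or more.

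The call as private rests on list thresholds, and few sites sat at the edge of overlap. The nearest FOXA1 peak of another line lay a median of 3140 bp away (10th to 90th percentile 501 to 14075 bp), and 3447 private sites (21.4%) had one within 1 kb. Just inside the rule, 45 private sites had a gap of up to 50 bp, with a median score percentile of 35.7. Just outside it, 27 shared sites had a largest overlap of up to 50 bp, with a median of 35.1. At the far end, 2624 private sites (16.3%) had no other-line FOXA1 peak within 10 kb and 10 had none within 100 kb. The number of private sites depended on the lists: it was 5156 with the upper 50% of the SKBR3 FOXA1 lists by score, 30958 with a peak of either SKBR3 replicate, and 25843 without SKBR3 FOXA1 replicate 1. With FOXA1 lists of equal length it was 21806, or 24.9% of SKBR3 sites. Where only peaks of both replicates of another line removed a site, it was 23348 (25.8%).

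Replicates that had not been used to choose the peaks gave a check of the rule. Of 25289 SKBR3 replicate 1 peaks that overlapped no replicate 1 peak of the other lines, 74.4% had a peak in SKBR3 replicate 2, 9.25% in T47D replicate 2 and 3.55% in MDA-MB-453 replicate 2. Read in replicate 2 alone, 65.9% of them again had a SKBR3 peak and none of the other lines (exact 95% interval 65.3 to 66.4), against 5.61% of the 82309 peaks chosen as shared (5.45 to 5.77). In the other direction, 50.7% of 32718 peaks chosen on replicate 2 were private again in replicate 1 (50.2 to 51.3), against 2.59% of the 84050 peaks chosen as shared. More of these peaks met a peak in MDA-MB-453 replicate 1 (13.1%), the longest list, than in T47D replicate 1 (10.8%).

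TLE3 was found at a smaller share of private sites than of shared sites taken as a whole. A peak of SKBR3 TLE3 replicate 1 overlapped 2211 of 16132 private sites (13.7%, exact 95% interval 13.2 to 14.2) and 16726 of 74388 shared sites (22.5%, 22.2 to 22.8), beside 20.9% of all SKBR3 FOXA1 sites. The private share depended on the lists, at 28.9% with the upper 50% of the SKBR3 FOXA1 lists, 27.7% with the upper 50% of all 6, 7.84% with a FOXA1 peak of either SKBR3 replicate and 4.46% with the upper 50% of the TLE3 list. The difference was −8.78 percentage points (Newcombe interval −9.38 to −8.16). The library labelled SKBR3 TLE3 replicate 2 overlapped 15.2% of private and 24.0% of shared sites, a difference of −8.83 points. Only 746 private sites (4.62%) had peaks of both SKBR3 TLE3 libraries, which is 33.7% of those with replicate 1, against 35.6% at shared sites. Turned round, 10.6% of the TLE3 replicate 1 list and 2.65% of the replicate 2 list lay at private sites.

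Peaks of TLE3 from the other lines were scarce at private sites. T47D TLE3 replicates 1 and 2 overlapped 125 (0.775%) and 586 (3.63%) of the private sites, against 25.2% and 41.6% of the shared sites. MDA-MB-453 TLE3 replicates 1 and 2 overlapped 23 (0.143%) and 2 (0.0124%) of the private sites, against 33.4% and 20.2% of the shared sites. Averaged per line group, TLE3 was at 14.4% ± 1.03 of private sites in SKBR3 (SD, n = 2 libraries) and at 1.14% ± 1.69 in the other lines (SD, n = 4 libraries). The difference was 13.3 points, and an exact two-sided permutation of the line labels gave p = 0.0667, the smallest that 15 arrangements of 6 libraries allow, so this design cannot reach 0.05. With the upper 50% of the SKBR3 FOXA1 lists and of all 6 lists the difference was 23.6 and 20.6 points. At shared sites the means were 23.2% ± 1.06 in SKBR3 and 30.1% ± 9.39 in the other lines, a difference of −6.87 points (exact permutation p = 0.467). Most TLE3 peaks of T47D and MDA-MB-453 (71.2% to 98.5%) lay at FOXA1 sites of their own line, which the rule removes. The low values of these libraries are thus in large part fixed by the rule, and the p-value cannot decide whether TLE3 differs between the lines. The labels call the replicates biological but do not say whether they came from separate cultures. The p-value covers the spread between these libraries, not between lines, and SKBR3 is a single line.

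**Figure D2:**
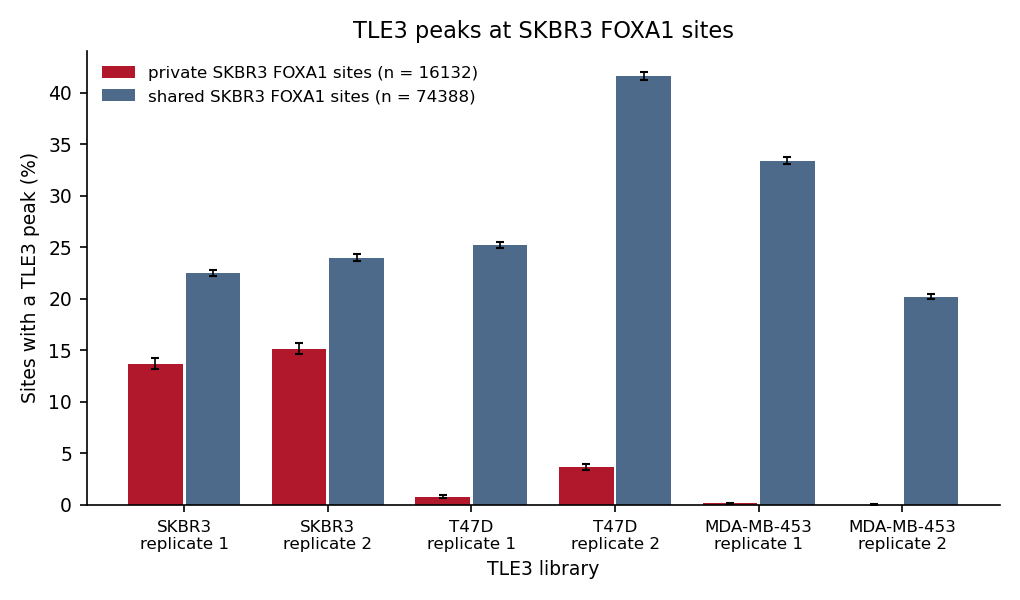
Percent of private (left bar of each pair) and shared (right bar) SKBR3 FOXA1 sites that overlap a TLE3 peak (y axis), for the 6 TLE3 libraries (x axis), with exact 95% intervals over sites. In both SKBR3 libraries the private bar stands at 13.7% and 15.2%, while in T47D and MDA-MB-453 it is at 3.63% or less, and the shared bars run from 20.2% to 41.6%.

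Among sites of equal FOXA1 rank the order turned round for TLE3 replicate 1. All 90520 sites were put into 10 rank groups of equal size by the mean score percentile over both SKBR3 FOXA1 lists, and private sites made up 31.5% of the lowest group and 1.82% of the highest. In the lowest group, TLE3 replicate 1 was at 4.04% of private and 2.53% of shared sites. In rank group 5 it was at 12.7% of private and 7.27% of shared sites, and in rank group 9 at 58.3% of private (54.2 to 62.4) and 46.3% of shared sites (45.2 to 47.3). In the highest group the intervals overlapped, with 77.6% of 165 private sites (70.4 to 83.7) and 77.2% of 8887 shared sites. The share was higher at private sites in 10 of 10 rank groups, by 0.339 to 12.1 points. Weighted by the number of private sites per group, shared sites of equal rank had TLE3 replicate 1 at 9.40%, so the private share of 13.7% was 4.31 points higher, where the whole sets gave −8.78. Within 10 groups of equal site width the difference was −0.0728 points, and for peaks of both SKBR3 TLE3 replicates together it was −3.38 points over the whole sets.

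**Figure D3:**
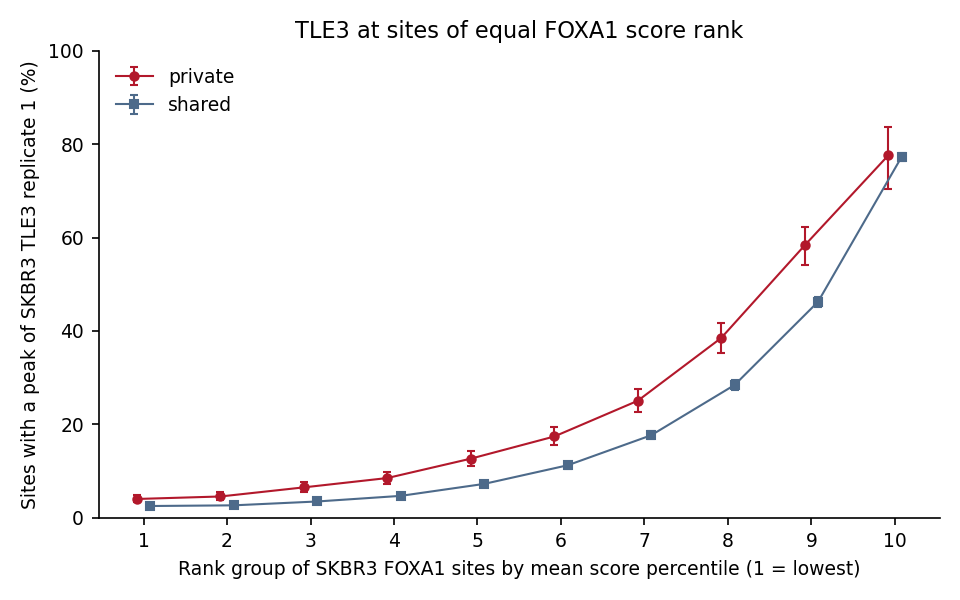
Percent of private and shared SKBR3 FOXA1 sites with a peak of SKBR3 TLE3 replicate 1 (y axis) in 10 equal rank groups of all SKBR3 FOXA1 sites by mean score percentile (x axis, 1 is the lowest), with exact 95% intervals over sites. The private points lie above the shared ones in each group, from 4.04% against 2.53% in the lowest to 58.3% against 46.3% in group 9, and nearly meet in the highest (77.6% against 77.2%).

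This turn rests on 1 library. With the library labelled SKBR3 TLE3 replicate 2 the difference at equal rank was −6.42 points, with private sites higher in 2 of 10 rank groups. Sites private to the other lines, treated in the same way with TLE3 of their own line, gave differences at equal rank of −3.36 and −7.77 points in T47D replicates 1 and 2, and of 3.86 and 1.27 points in MDA-MB-453 replicates 1 and 2. The 3 lines were thus not alike in sign, and this difference between lines was not tested. Without the rank adjustment all 6 libraries had the lower share at sites private to their line, at 13.7% and 15.2% in SKBR3 (against 22.5% and 24.0% at shared sites), 7.35% and 17.7% in T47D (24.6% and 41.4%) and 17.5% and 6.45% in MDA-MB-453 (33.7% and 19.3%). Sites private to T47D numbered 17206 of 112670 (15.3%) and those private to MDA-MB-453 33519 of 135315 (24.8%), in lists of other lengths.

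The private sites with TLE3 replicate 1 were broader and higher ranked than those without, as was also the case among shared sites. The 2211 sites with a TLE3 replicate 1 peak had median FOXA1 percentiles of 66.0 and 70.9 and a median width of 662 bp, against 38.1 and 42.9 and 445 bp for the 13921 without. Among shared sites the medians were 88.5 and 89.9 and 886 bp with such a peak, against 53.5 and 56.7 and 488 bp without. For the library labelled SKBR3 TLE3 replicate 2 the gap was smaller at private sites, with 48.2 and 52.5 and 545 bp for the 2445 with a peak, against 40.1 and 45.1 and 452 bp without. Of the 100 best ranked private sites, 82 had a TLE3 replicate 1 peak, and of the 10 best ranked 9, while replicate 2 was at 45.0% of the 100 and 40.0% of the 10. In the highest of the 10 rank groups TLE3 replicate 1 was at 77.2% of shared sites, so a high share among top ranked sites is not particular to private ones. The TLE3 peaks at private sites were weaker than at shared sites, with a median percentile in the TLE3 replicate 1 list of 34.5 at private and 55.8 at shared sites. These private sites also ranked lower by FOXA1, and the strength of the TLE3 peaks was not compared at equal FOXA1 rank or in replicate 2. The strongest TLE3 replicate 1 peak at a private site stood at a site of low FOXA1 rank. It lay in SECTM1, which encodes a membrane and secreted protein of epithelial cells (chr17:82333858-82334128), with a TLE3 score of 162.0 at percentile 99.3, while its FOXA1 scores were 8.85 and 10.6 at percentiles 20.5 and 28.6. At the site 14263 bp from TMEM254 the TLE3 score was 99.8 with FOXA1 scores of 78.2 and 121.6, and at the site 28498 bp from the transporter gene SLC16A9 it was 89.2 with 117.8 and 151.8. The others of the 10 strongest lay nearest to ZBTB10, TRAM1, OTUD7A, UBE2E2, FBXO32, GNGT1 and PARK7, with TLE3 scores of 81.8 to 100.8. FBXO32 and UBE2E2 encode parts of the ubiquitin system and PARK7 a redox-sensing chaperone.

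Private sites were spread over all chromosomes and grouped in places. They made up from 13.8% of SKBR3 FOXA1 sites on chromosome 14 to 22.9% on chromosome 9. Among the 1443 bins of 1 Mb with 30 or more SKBR3 sites the median private share was 17.4%, and the highest was 63.9%, for 23 of 36 sites in chr1:5000001-6000000. Private sites linked by gaps of at most 12.5 kb formed 820 clusters of 3 or more, with 2929 sites (18.2%), while 9447 sites (58.6%) had no private neighbour at that distance. With gaps of 5 kb and 25 kb the clustered share was 7.86% and 31.5%. Of these clusters 99 held 5 or more sites and 336 held no FOXA1 peak of another line between their ends. The share with TLE3 replicate 1 was 11.6% for sites with no private neighbour (10.9 to 12.2), 16.1% in pairs, 16.5% in clusters of 3 or 4 and 21.9% in clusters of 5 or more (18.6 to 25.5). With the library labelled replicate 2 these shares were 13.6%, 16.6%, 17.3% and 22.2%. The median FOXA1 percentiles moved with it, at 39.2 and 44.1 for single sites and 49.0 and 54.1 in clusters of 5 or more, and their part in it was not tested. Sites private to T47D were clustered for 12.4% and those private to MDA-MB-453 for 17.9%, and site numbers differ between the lines. The clustering of shared SKBR3 sites was not measured, so these shares do not set private sites apart from them.

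The largest cluster held 13 private sites over 41585 bp in AOPEP, an aminopeptidase gene, where it overlaps FANCC, a Fanconi anaemia DNA repair gene (chr9:95064399-95105983). Inside it SKBR3 FOXA1 replicates 1 and 2 had 18 and 13 peaks, and SKBR3 TLE3 replicates 1 and 2 had 4 and 10. None of the 4 FOXA1 and 4 TLE3 libraries of T47D and MDA-MB-453 had a peak in it. Its sites were of middling rank. The mean percentiles ran from 20.4 to 75.3 with a median of 50.7, and the FOXA1 scores in replicates 1 and 2 reached 56.0 and 65.1. The 4 sites with TLE3 replicate 1 had TLE3 scores of 8.65 to 17.7.

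**Figure D4:**
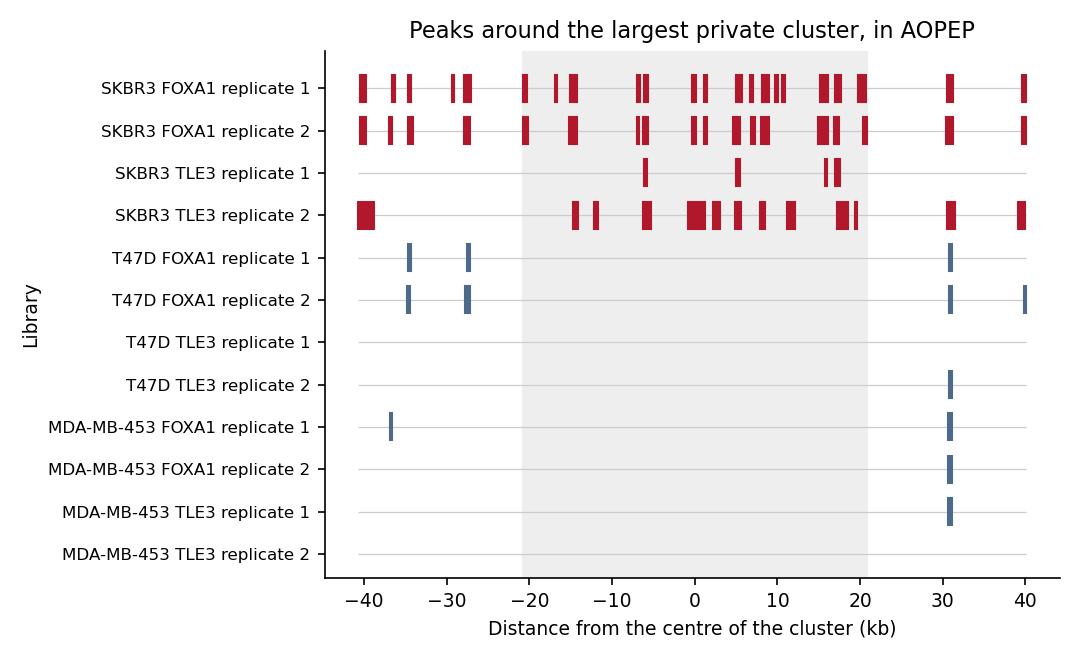
Peaks of the 12 libraries (rows, SKBR3 above the other lines) around the largest cluster of private sites, by distance from its centre in kb (x axis). Each bar is a peak, the shaded span is the cluster of 41585 bp, and inside it SKBR3 has 18 and 13 FOXA1 peaks and the other lines have none, while common peaks appear outside it.

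A second group of private sites lay on the same arm, with 9 sites over 55969 bp at FBP1 (chr9:94637055-94693023), 4 of them with TLE3 replicate 1 and mean percentiles of up to 99.1. The cluster of 11 at SPNS3 and SPNS2, the latter a transporter of sphingosine-1-phosphate (chr17:4474541-4537909), held weaker sites with a median percentile of 26.4 and 5 shared sites among them. In ERC2, a gene of the presynaptic active zone, 10 private sites stood in 37601 bp (chr3:55601318-55638918). The 2 T47D FOXA1 libraries had no peak there, and the 2 MDA-MB-453 libraries had 5 each. Clusters of 8 lay in MTCL2, next to LOC124906010, 127955 bp from EIF3H and 34438 bp from NEBL, and clusters of 7 lay 74386 bp from SPSB1 and 246688 bp from ZFHX4. Those at LOC124906010 and SPSB1 also held no FOXA1 peak of another line.

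Private sites were near many genes, and mostly few per gene. Of 19974 protein-coding genes, 9531 (47.7%) had a private site inside or within 50 kb, and 915 had 5 or more. The median gene had 0 private and 4 SKBR3 sites. The genes with the most were led by AOPEP with 30 private of 69 SKBR3 sites, the calcium channel subunit gene CACNA2D3 with 26 of 47, the glycosyltransferase gene GALNT17 with 25 of 42 and KAZN, which encodes a desmosome-associated protein, with 24 of 64. TSHZ2 and ERC2 had 20 each of 51 and 62, and ELMO1, an activator of the Rac pathway, had 19 of 48. The kinase genes PRKCA and PRKCE and the neuron navigator gene NAV2 had 19 each, of 50, 66 and 52 sites. The 10 genes are 424 to 1225 kb long, and the part of gene length in their counts was not tested. TLE3 replicate 1 was at 6 of the private sites of AOPEP and of NAV2 and at none of those of PRKCE.

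A smaller share of private than of shared sites lay at gene ends. Within 1 kb of an end of any annotated gene lay 1188 private sites (7.36%, 6.97 to 7.78) and 8327 shared sites (11.2%, 11.0 to 11.4), a difference of −3.83 points. Inside protein-coding genes lay 49.7% of private and 51.1% of shared sites.

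Pooled over each list, the sites near luminal and estrogen response genes had the lowest private shares. Within 50 kb of the 25 genes of a luminal list, 39 of 371 SKBR3 sites were private (10.5%, exact 95% interval 7.58 to 14.1), and near 17 estrogen response genes 11 of 148 (7.43%, 3.77 to 12.9), against 17.8% of all SKBR3 sites within 50 kb of a protein-coding gene. Counted by genes, 19 of 25 luminal (76.0%) and 7 of 17 estrogen response genes (41.2%) had a private site, beside 47.7% of all genes. By this count the luminal list was above all genes, and single luminal genes differed in their private share. These counts are a description, since lists and sites were chosen with earlier results known. For sites private to T47D, made in the same way, the shares near the 2 lists were 20.3% and 22.8%, beside 14.1% of all T47D sites near protein-coding genes. For MDA-MB-453 they were 10.8% and 8.74%, beside 22.2%. ESR1, the estrogen receptor, had 1 private of 27 SKBR3 sites, FOXA1 itself 1 of 22, and GATA3, its partner factor, 1 of 10. KRT8, a luminal keratin, had 2 of 18, both low in the lists, with scores of 8.74 and 5.91 at one and 9.17 and 6.63 at the other. KRT7, a keratin of simple epithelia, had the most of the list with 8 of 26, TRPS1, a GATA-type repressor, had 5 of 52 and ANKRD30A, a breast differentiation antigen, 4 of 19. Of the estrogen response genes, CA12, a carbonic anhydrase, led with 3 of 13, and CCND1, the cyclin D1 gene, and NRIP1, a receptor cofactor, had 2 each of 7 and 16.

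Near 20 genes of basal cells 40 of 172 sites were private (23.3%, 17.2 to 30.3), and the interval takes in the 17.8% of all genes. The share was 17.3% for sites private to T47D, beside 14.1% near all protein-coding genes, and 13.2% for those private to MDA-MB-453, beside 22.2%. EGFR, the epidermal growth factor receptor, led with 13 private of 26 sites, of which 11 lay inside the gene. Its highest ranked one (chr7:54980210-54980817) had FOXA1 scores of 70.5 and 104.0 and was the single one of the 13 with TLE3 replicate 1, at a score of 6.91. TP63, the basal p53 family factor, had 10 of 52. At KRT5, a keratin of basal cells, all 4 SKBR3 sites were private. Their scores in replicates 1 and 2 were 28.6 and 27.6, 10.2 and 14.4, 8.71 and 25.9, and 11.7 and 52.8, none carried TLE3 replicate 1, and the nearest other-line FOXA1 peaks lay 7670 to 28957 bp away. The same sites stand near KRT6A (4 of 5), so the keratin genes of this locus are not independent. KRT14 had 0 private of 10 sites.

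**Figure D5:**
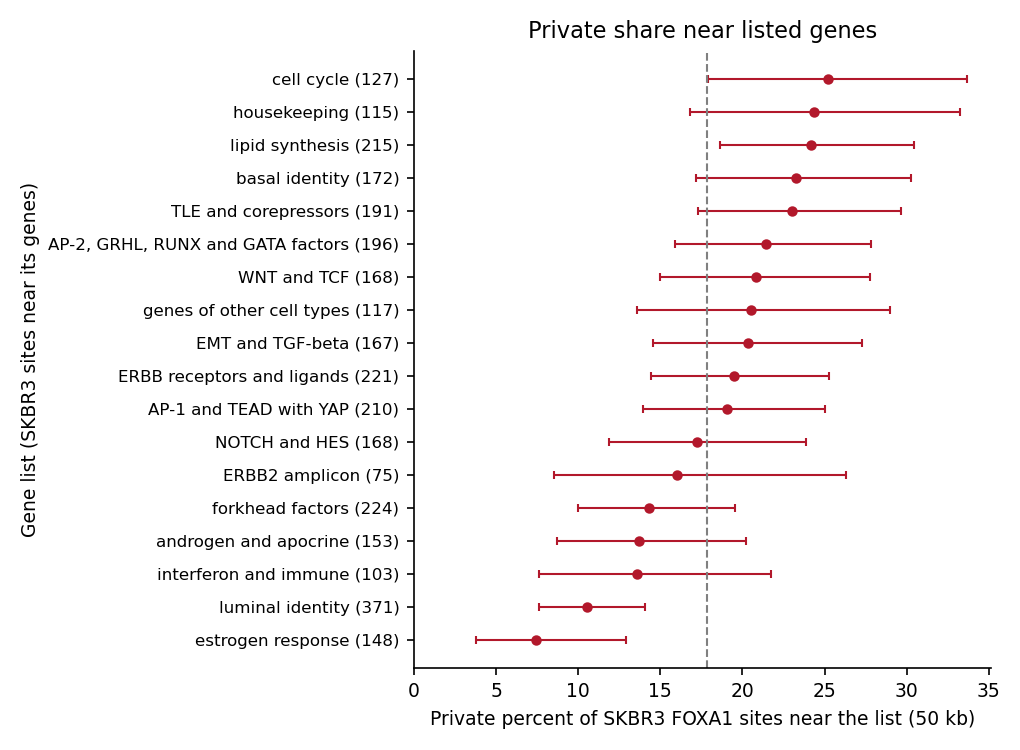
Private percent of the SKBR3 FOXA1 sites within 50 kb of the genes of 18 lists (x axis), with exact 95% intervals over sites, the number of sites in brackets and the share for all protein-coding genes (17.8%) as a dashed line. Estrogen response (7.43%) and luminal identity (10.5%) lie lowest with intervals below the line, lipid synthesis (24.2%) and cell cycle (25.2%) have intervals above it, and the other 14 intervals include it. The lower end for cell cycle, 17.9%, nearly meets the line. Sites are not replicates and no test was run over the 18 lists, so the order is a description.

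Among receptors, 43 of 221 SKBR3 sites near 20 ERBB receptor and ligand genes were private (19.5%). ERBB2, the receptor amplified in SKBR3, had 5 of 23. The strongest of them lay inside the gene (chr17:39723426-39725228), with FOXA1 scores of 176.5 and 169.1 at percentiles 93.2 and 92.0 and a TLE3 replicate 1 score of 20.8. The other 4 scored 58.4 and 52.0 or less and had no TLE3 replicate 1 peak. NRG2, a ligand of ERBB receptors, had 9 of 15, and ERRFI1, an inhibitor of EGFR signalling, 5 of 18. Over the 19 genes of the ERBB2 amplicon 12 of 75 sites were private (16.0%, 8.55 to 26.3), with IKZF3 and PGAP3 at 6 each of 15 and 23 and PNMT at 5 of 19. The inputs were not analysed here, so the gain of DNA at this locus could not be set against its peaks.

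For the lists of transcription factors and corepressors the exact 95% intervals took in the 17.8% of all genes. The shares were 21.4% near AP-2, GRHL, RUNX and GATA factors, 19.0% near AP-1 and TEAD factors with YAP, 14.3% near forkhead factors and, near TLE genes and corepressors, 44 of 191 (exact 95% interval 17.3 to 29.7%). GRHL1, an epithelial factor, had 9 private of 21 sites, RUNX1 6 of 28 and TFAP2C 5 of 14. TEAD1, the DNA-binding partner of YAP, had 13 of 40, and BATF and ATF3, factors of the AP-1 and ATF families, 5 each of 9 and 21. Of the forkhead genes FOXP2 had 9 of 35, and FOXN3 and FOXP1 6 each of 23 and 53. Of the corepressor genes, CTBP2 had 9 of 28 and TLE2 6 of 13. TLE3 itself had 3 private of 19 sites, none above percentile 36.1 in either list and none with TLE3 replicate 1.

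Signalling lists gave 20.8% for WNT and TCF genes, 17.3% for NOTCH and HES genes, 20.4% for genes of the epithelial-mesenchymal transition and TGF-beta and 13.7% for androgen response and apocrine genes. TCF7L2, a WNT effector, had 7 of 24 sites private and TCF7L1 and ZNRF3 6 each of 18 and 28. MAML2, a NOTCH coactivator, had 10 of 43, HEY1 5 of 13 and HES2 3 of 10. TGFB2 and SMAD3, ligand and mediator of TGF-beta signalling, had 6 each of 24 and 28, and the receptor gene TGFBR1 5 of 16. AQP3, a water channel, and DHRS2 had 4 each of 10 and 14, and ALOX15B, an apocrine lipoxygenase, 2 of 7.

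The lists with the highest shares were those of cell cycle (32 of 127, 25.2%, 17.9 to 33.7), housekeeping (28 of 115, 24.3%, 16.8 to 33.2) and lipid synthesis (52 of 215, 24.2%, 18.6 to 30.5). MCM2, a subunit of the replicative helicase, had 6 private of 7 sites, CDK1 5 of 9 and CCNB1, its cyclin, 5 of 10. Of the lipid genes PPARG, the adipogenic nuclear receptor, had 11 of 29, SQLE, an enzyme of cholesterol synthesis, 6 of 14, and ELOVL6, a fatty acid elongase, 6 of 23. SDHA, a subunit of succinate dehydrogenase, led the housekeeping genes with 8 of 12, followed by PPIA with 3 of 6 and TFRC with 2 of 5. Interferon and immune genes had 14 of 103 sites private (13.6%), with NFKB1 at 3 of 13, STAT2 at 2 of 4 and CCL20 at 2 of 7. Genes of other cell types had 24 of 117 (20.5%), with VWF, an endothelial gene, at 4 of 11, INS at 3 of 6 and PAX6 at 3 of 7.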

How the data were processed

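The authors deposited 1 peak list per immunoprecipitated library, 12 in all, with chromosome, bounds, a name and a score in 5 columns, so replicates were not pooled. The submitters' processing notes name hg38 as the build and, with no role or order, MACS2, BWA 0.7.5a, SAMtools and Trim Galore. Settings of the peak calling and the quantity behind the score are not given in these sources. The score was used only to rank peaks within a list. The 6 inputs were not analysed here. Peaks on chromosomes 1 to 22 and X were used, and overlap means at least 1 bp.

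The private sites, gene lists and tests were chosen with earlier results of these data known. A cluster is 3 or more private sites linked by gaps of at most 12.5 kb. Genes came from a RefSeq table of GRCh38.p14 with gene bounds but no exons, so sites are given as inside a gene, not as exonic or intronic. All 362 entries of the 18 lists matched a symbol. The rule for names took the nearest protein-coding genes of the 10 private sites ranked highest by FOXA1 and by TLE3 score, the genes at the 10 largest clusters, the 10 genes with the most private sites, the 3 leading members of each list and ERBB2, FOXA1, TLE3, GATA3, ESR1, KRT8 and KRT5. PSG5 and other nearest genes are named by position only. KRT6A, KRT14 and the further values of EGFR were added after their values were seen. The result for 1 gene that the rule names is not reported here.

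Values over libraries were compared by exact two-sided permutation (numpy 2.4.6, scipy 1.17.1). Shares have exact Clopper-Pearson and differences Newcombe intervals at the 95% level, for counting error only. Scripts were tested on simulated data. Alternatives were other score thresholds, overlap rules, list lengths, distances and gaps, each library left out, and a replicate block.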

Additional observations from a re-analysis of the deposited data

Results flagged for a closer look

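The TLE3 share at sites private to a line, less that at its shared sites of equal FOXA1 rank, went one way in both T47D libraries, at −3.36 and −7.77 percentage points, and the other way in both MDA-MB-453 libraries, at 3.86 and 1.27 points. SKBR3 had 4.31 points in TLE3 replicate 1 and −6.42 in the library labelled replicate 2. The opposite signs drew attention here, and the difference between the lines was not tested.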

How the results depend on the processing

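Of 123 recomputed values, 4 changed sign, all for TLE3 at private against shared sites. A further 50 moved beyond the limit set for their result, and 69 did not. For most results the limit was the counting interval. For TLE3 in SKBR3 less the other lines only a change of sign counted. The difference of −8.78 points for SKBR3 TLE3 replicate 1 was 4.31 within 10 groups of FOXA1 rank, 3.92 with the rank of FOXA1 replicate 1 alone and 4.30 with that of replicate 2 alone, and the difference at equal rank was −6.42 with the library labelled SKBR3 TLE3 replicate 2. The cause was not tested. The −8.78 points came to −6.74 with the upper 50% of the SKBR3 FOXA1 lists, −9.97 with equally long lists, −8.06 with no other peak within 1 kb, −3.38 with peaks of both TLE3 replicates, −8.11 with the upper 50% of the TLE3 list, −0.0728 within 10 groups of site width, and −9.59 to −8.94 with a FOXA1 library left out. The 4.31 points at equal rank, a value added after seeing the data, came to 7.996 with the upper 50% of the SKBR3 lists, 3.91 within groups of rank and width, and 2.77 (without SKBR3 FOXA1 replicate 1) to 4.33 with a library left out. The number of private sites was 5156 with the upper 50% of the SKBR3 lists, 10110 with the upper 50% of all 6 lists, 30958 with a peak of either SKBR3 replicate, and 16661 to 25843 with a library left out, the highest without SKBR3 FOXA1 replicate 1, where 1 replicate makes a site. The difference near gene ends was −2.63 and −2.88 points with the upper 50% of the SKBR3 and of all 6 lists. TLE3 at private sites in SKBR3 less the other lines was 13.3 points with a replicate block (exact permutation p = 0.111, the smallest of 9 arrangements). It was 10.2 to 14.1 with a library left out, and 23.6 and 20.6 with the upper 50% of the SKBR3 and of all 6 FOXA1 lists. The rule that chose the sites in large part fixes these differences, so this p-value decides nothing between the lines either. The replicate numbers are shared by label alone, and the correlation over sites of the replicate difference between lines was −0.1004 to 0.0525. The clustered share was 7.86% with gaps of 5 kb and 31.5% with 25 kb. The share of protein-coding genes near a private site was 26.3% at 10 kb, 63.3% at 100 kb and 30.3% by the nearest gene alone. Private sites made up 10.6% to 25.8% of SKBR3 FOXA1 sites over the alternatives. The luminal share was 6.10% at 10 kb and 10.7% at 100 kb, the basal share 29.9% and 23.4%, and the estrogen response share 4.88% and 11.3%. The planned search for a forkhead motif at the sites needs a genome sequence and was not run. Unknown depth limits every call of a private site, since a weak peak in another line may lie under its caller's threshold.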

Other observations

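The 586 private sites with a peak of T47D TLE3 replicate 2 held no T47D FOXA1 peak by rule. They did not stand higher in the SKBR3 FOXA1 lists than the other 15546 private sites, with median percentiles of 39.9 and 46.0, against 41.2 and 46.2. A peak of SKBR3 TLE3 replicate 1 lay at 40.4% of them, against 12.7% of the others. Of them 27.5% had an other-line FOXA1 peak within 1 kb, against 21.1% of the others. The 125 private sites with T47D TLE3 replicate 1 had median percentiles of 37.8 and 41.4, against 41.2 and 46.3 for the other 16007, and SKBR3 TLE3 replicate 1 lay at 50.4% of them, against 13.4%. Among shared sites SKBR3 TLE3 replicate 1 lay at 51.3% of those with T47D TLE3 replicate 1, against 12.8% of those without, and at 40.8% of those with T47D TLE3 replicate 2, against 9.47%. This pattern was noticed in the data, and no test was run on it.

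The 10 private sites with no other-line FOXA1 peak within 100 kb had a median score percentile of 64.4, and none had a peak of SKBR3 TLE3 replicate 1. Of the 2624 sites with none within 10 kb, 389 had one (14.8%). A set of 10 sites is too small to tell these shares apart, and no test was run.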
